A study of Homo sapiens with 8 samples.

Results

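The 9 genes described here encode proteins that start or restrain blood clotting at cell surfaces and proteins that turn plasminogen into plasmin. They are TFPI, TFPI2, F3, THBD, PROCR, PLAU, PLAT, PLAUR and SERPINE2, taken by gene symbol from tables of 59050 symbols. All 9 passed the filter on low counts that left 16219 genes. The tumours were grown in mice, which received vehicle, as xenografts of H2122, an established line of human lung cancer cells. Of the 8 tumours, 4 came from parental cells (genotype labelled WT) and 4 from cells labelled SMARCA4 KO, which had lost a catalytic ATPase gene of the SWI/SNF chromatin remodelling complexes. Bulk RNA was sequenced from each tumour. The host strain, its age and whether the knockout cells were 1 clone or a pool are not given in the sources used here. The title of the series places the comparison in the setting of anti-tumour immunity and STING. The genes were chosen by their roles with the knockout against parental fold changes already known, TFPI2 because it ranked 5 from the top of all 16219. Their differences between the groups are therefore given as a description, with standard errors and no p-value.

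As background, clotting at a cell surface begins when tissue factor (F3) binds factor VII and the pair activates factor X. TFPI, a secreted inhibitor built from Kunitz domains, blocks that complex. Its paralog TFPI2 is a matrix-bound Kunitz inhibitor that acts mainly on plasmin, trypsin and related proteases. Thrombomodulin (THBD) and the endothelial protein C receptor (PROCR) turn thrombin towards activating the anticoagulant protein C. In the other arm, urokinase (PLAU, held at the cell by its receptor PLAUR) and tissue plasminogen activator (PLAT) cleave plasminogen to plasmin, and the serpin encoded by SERPINE2 inhibits thrombin and both activators. Many carcinomas produce tissue factor and urokinase themselves, which ties tumour cells to clotting and to breakdown of the matrix.

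Promoter sequences are shown first for 4 genes, TFPI2 and its paralog TFPI because their transcripts differed so unlike each other between the groups, and F3 and PLAUR because they share a short motif with TFPI2. Each is the 250 bases before the RefSeq transcription start (GRCh38.p14), 5′ to 3′ on the gene's strand. Capitals mark matches on either strand to TGANTCA, the letters of an AP-1-type site, to GGGCGG, a GC box, or to TATAAA.
TFPI2 (chr7:93890754-93891003, minus strand): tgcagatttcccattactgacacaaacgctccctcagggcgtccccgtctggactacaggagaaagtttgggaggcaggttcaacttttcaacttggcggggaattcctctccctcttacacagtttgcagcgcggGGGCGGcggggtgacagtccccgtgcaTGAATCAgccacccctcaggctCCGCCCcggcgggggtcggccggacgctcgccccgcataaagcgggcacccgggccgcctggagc
TFPI (chr2:187554436-187554685, minus strand): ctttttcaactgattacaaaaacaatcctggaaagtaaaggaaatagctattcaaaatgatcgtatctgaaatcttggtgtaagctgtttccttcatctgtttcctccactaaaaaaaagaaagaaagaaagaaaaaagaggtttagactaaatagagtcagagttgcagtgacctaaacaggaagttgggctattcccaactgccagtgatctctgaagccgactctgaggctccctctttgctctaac
F3 (chr1:94541760-94542009, minus strand): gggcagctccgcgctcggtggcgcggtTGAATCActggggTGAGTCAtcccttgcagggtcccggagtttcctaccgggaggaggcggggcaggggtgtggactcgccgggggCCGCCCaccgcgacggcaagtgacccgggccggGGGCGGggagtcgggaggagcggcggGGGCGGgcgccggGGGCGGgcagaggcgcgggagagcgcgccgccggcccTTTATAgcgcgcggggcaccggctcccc
PLAUR (chr19:43670170-43670419, minus strand): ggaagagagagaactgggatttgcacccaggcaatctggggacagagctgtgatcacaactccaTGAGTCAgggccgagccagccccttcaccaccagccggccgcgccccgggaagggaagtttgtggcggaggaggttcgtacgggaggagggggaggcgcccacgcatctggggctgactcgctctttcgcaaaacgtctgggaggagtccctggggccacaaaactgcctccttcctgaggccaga
PLAT and THBD are left out of the motif counts, as no window of theirs was examined. For the other 7 of the 9 genes, 9 windows were taken by symbol from the RefSeq table. TGANTCA lay in 3 of those windows, at 87 bases before the start in TFPI2, at 223 and 210 in F3 and at 186 in PLAUR, and in 6.57% of all 35116 promoter windows of 250 bases. GGGCGG lay in windows of 5 of the genes: F3, TFPI2, PROCR, SERPINE2 (each of its windows) and PLAU (1 of its windows). It lay in 42.6% of all windows, which is a share of windows, where the 5 is a count of genes. A TATAAA match was found in F3 and PROCR, against 10.7% of all windows. None of the 3 motifs was in the TFPI window, which lies inside the gene as GENCODE 29 draws it, since TFPI reaches 11325 bases further upstream. The motif and CpG values of TFPI therefore concern 1 internal start, and other starts were not examined. The TFPI2 window held 20 CpG dinucleotides and 64.4% G and C, the F3 window 34 and 78.0%, and the TFPI window 2 and 38.4%, where the median window held 11 CpG. Of the 7 GENCODE 29 transcripts of TFPI2, 1 starts 238 bases further upstream, inside the printed window. PLAUR reaches 378 bases upstream of its RefSeq start, so its window also lies inside the gene, and 41 bases of the F3 window do. Every window of SERPINE2 and PLAU lies wholly inside its gene too. Letters that match a motif are not evidence that a factor binds there, and these counts hold no measurement of binding or methylation.

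Libraries held 19785922 to 23191698 gene counts, and every library differed from each of the others by more than sampling noise. Values are in CPM, a count scaled to library size (edgeR's TMM), and a value with ± is the mean and SD over the 4 tumours of a group (n = 4), parental first and knockout second. The targeted gene SMARCA4 was at 221 ± 16.0 and 27.3 ± 3.90 CPM, with every library on its label's side. Over the whole table, 27.0% of the genes tested were called changed (edgeR quasi-likelihood test, adjusted p under 0.05), 2102 of them higher and 2283 lower in knockout tumours. All 8 carcinoma epithelium markers (EPCAM, CDH1, CLDN4, CLDN7 and 4 keratins) were present. They summed to 6479 to 7568 CPM in parental and 5042 to 6676 CPM in knockout tumours (exact permutation p = 0.0571, 0.0952 after adjustment). EPCAM, KRT7, CLDN7, KRT19 (1060 ± 153 and 526 ± 51.0 CPM) and CLDN4 (430 ± 32.4 and 217 ± 21.0 CPM) were lower in knockout tumours without overlap. CDH1, KRT8 and KRT18 overlapped, with higher knockout means. Markers of other cell types were measured because endothelium also makes THBD, PROCR, TFPI and PLAT, and leukocytes make PLAUR. Of 11 endothelial markers only PECAM1 and EGFL7 averaged over 1 CPM. Their whole list summed to 15.8 to 24.3 CPM in parental and 26.6 to 32.4 CPM in knockout tumours (permutation test, exact and two-sided, p = 0.0286, or 0.0714 when adjusted over 5 marker lists). EGFL7 carried that difference, at 8.70 ± 0.885 and 17.7 ± 0.994 CPM, while PECAM1 overlapped between the groups (5.14 to 12.9 and 7.99 to 14.6 CPM). Among the rarer markers, 2 went the other way in total. They were CDH5, the endothelial cadherin, with 36 parental and 0 knockout counts (a total of 0 allows up to 3), and KDR, with 38 and 9. KDR overlapped between the groups (0.0518 to 0.732 and 0.0467 to 0.187 CPM). TIE1 was higher in knockout tumours in total, with 15 and 30 counts, but overlapped. TEK (28 and 24), ERG (20 and 21) and ESAM (31 and 28) hardly differed, and EMCN, CLDN5 and ROBO4 had at most 5 counts in a group. CDH5 was highest in parental replicate 3 (1.16 CPM), and its lowest parental tumour was at 0.0488 CPM. The 10 leukocyte markers summed to 7.91 to 74.4 CPM in parental tumours, highest in replicates 2 (74.4) and 3 (62.9), and to 13.6 to 32.0 CPM in knockout tumours (exact permutation p = 0.400, 0.400 after adjustment). Fibroblast markers summed to 181 to 611 and 345 to 606 CPM (exact permutation p = 0.400, 0.400 after adjustment). COL1A1 made up most of that sum, with means of 353 and 447 CPM. LUM was higher in knockout tumours without overlap, with 33 parental and 1053 knockout counts, and the other fibroblast markers overlapped. The 6 platelet markers summed to 0.638 to 2.0 and 13.4 to 25.2 CPM (exact permutation p = 0.0286, 0.0714 after adjustment), nearly all of it from PPBP. ITGA2B was also higher in knockout tumours without overlap, with 25 parental and 77 knockout counts. GP6 (2 and 9) and GP1BA (0 and 5) had few counts, GP9 had 0 counts in all 8 libraries and PF4 had 1. The part of these cell types in the values below was not tested. In bulk tumours, fewer cells of a type and less RNA per cell cannot be told apart.

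**Figure D1:**
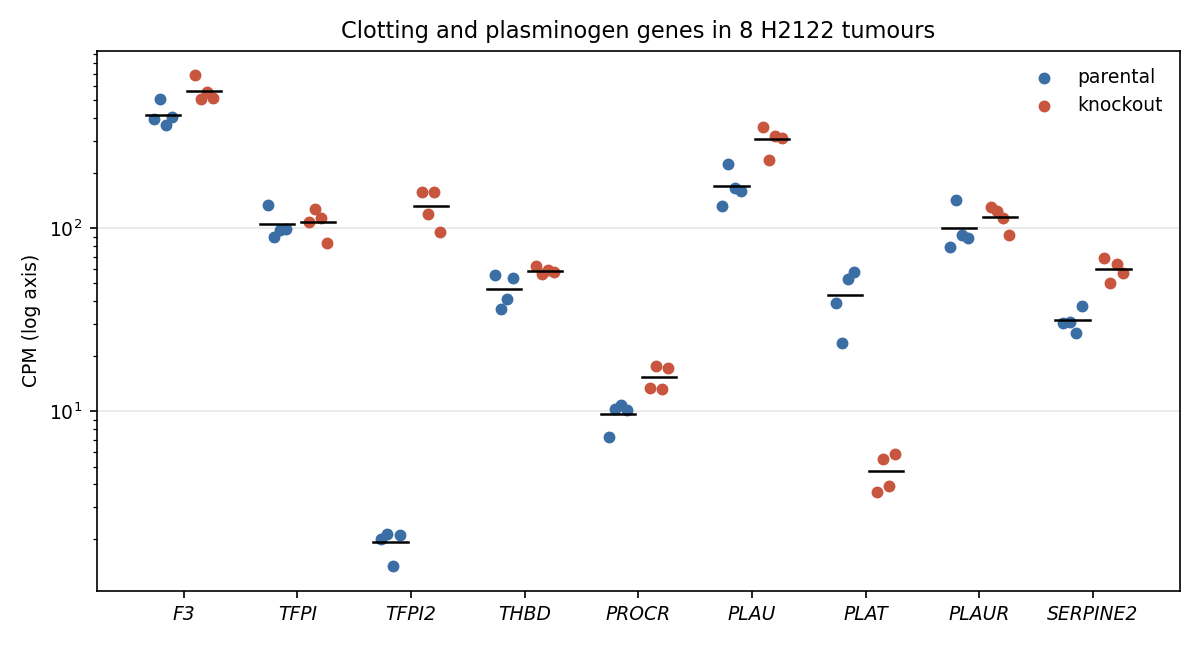
CPM on a log axis for the 9 genes, with 1 point per tumour and a bar at the mean of each group of 4. TFPI2 lies at 1.43 to 2.15 CPM in parental and 95.7 to 158 CPM in knockout tumours. PLAT lies lower in all knockout tumours. TFPI and PLAUR overlap, and the groups of F3 meet at 505 CPM.

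Tissue factor and its inhibitors were compared first, with positions from GENCODE 29 on GRCh38. F3 (chromosome 1, 94529225 to 94541800, minus strand), the trigger of clotting, was at 394, 505, 365 and 407 CPM in the parental tumours (replicates 1 to 4, the order used throughout) and at 685, 505, 555 and 513 CPM in the knockout tumours. The highest parental tumour and the lowest knockout tumour met at 505 CPM, and the other knockout tumours lay above every parental one. The means were 418 ± 61.0 and 565 ± 82.9 CPM, and the log2 fold change was 0.43 (SE 0.127). F3 passed the call threshold with all 8 tumours but not without parental replicate 1 (0.40) or 3 (0.37), or without knockout replicate 1 (0.33) or 3 (0.44).

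TFPI (chromosome 2, 187464230 to 187565760, minus strand), the inhibitor of the tissue factor complex, hardly differed. It was at 134, 89.1, 97.9 and 99.1 CPM in the parental tumours and at 109, 127, 114 and 83.6 CPM in the knockout tumours. The groups overlapped along most of their range, and the highest tumour was a parental one. The log2 fold change was 0.05 (SE 0.148), and its sign turned without parental replicate 2 (-0.03) or without knockout replicate 2 (-0.04).

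TFPI2, the paralog, was nearly silent in parental tumours and abundant in knockout tumours. Parental counts were 39, 44, 32 and 50, and knockout counts 3382, 2440, 3377 and 2049. In CPM these were 2.02, 2.15, 1.43 and 2.13 against 158, 119, 158 and 95.7. Every knockout tumour lay far above every parental tumour, with knockout replicate 4 the lowest of its group. The log2 fold change was 6.10 (SE 0.212), and it ran from 5.97 to 6.23 over 15 other analyses. The coefficient of variation was 17.6% among parental and 23.1% among knockout tumours, so the spread within a group was small beside the difference between them. TFPI2 (ENSG00000105825) lies on chromosome 7 from 93885396 to 93890991, on the minus strand (GENCODE 29, GRCh38).

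The balance of the TFPI paralogs was therefore read per length, as CPM per kb of exon. TFPI2 made up 6.20%, 9.53%, 5.99% and 8.57% of the summed TFPI and TFPI2 level in the parental tumours, against 86.4%, 80.3%, 85.8% and 83.3% in the knockout tumours. The mean share went from 7.57% ± 1.75 to 84.0% ± 2.77. By raw counts it was 1.85% and 54.8%, since TFPI has the longer transcripts. Set against F3 in the same tumour, the TFPI2 level per kb was 0.496% ± 0.0692 of that of F3 in parental and 25.1% ± 4.28 in knockout tumours.

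The protein C arm came next. THBD (chromosome 20, 23045633 to 23049741, minus strand), which binds thrombin, was at 55.8, 36.1, 40.9 and 53.3 CPM in parental tumours and at 62.0, 56.2, 59.1 and 57.8 CPM in knockout tumours. The knockout tumours lay close together and just above the parental ones, of which replicates 2 and 3 were lowest. Its log2 fold change of 0.34 (SE 0.131) did not pass the call threshold, although it did with upper-quartile scaling (0.38) and without parental replicate 1 (0.43). PROCR (chromosome 20, 35172073 to 35216240, plus strand), the receptor that presents protein C, was at 7.25, 10.3, 10.9 and 10.1 CPM in parental and at 13.5, 17.7, 13.2 and 17.3 CPM in knockout tumours. The groups did not overlap, and the log2 fold change was 0.68 (SE 0.157). The endothelial marker sum was also higher in every knockout tumour than in any parental one, through EGFL7. PECAM1 overlapped, CDH5 and KDR were lower in total, TIE1 was higher in total, and the other endothelial markers hardly differed or had few counts. The part of endothelium in the THBD and PROCR values was not tested. An opposite-strand gene, MMP24OS, overlaps PROCR and had 1026 to 1652 counts per library against 140 to 371 for PROCR. The counting is not stated to use strand, so the PROCR counts are uncertain.

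Among the plasminogen activators, PLAU and PLAT differed in opposite directions. PLAU (chromosome 10, 73909177 to 73917497, plus strand), urokinase, was at 132, 225, 167 and 159 CPM in parental and at 359, 236, 318 and 311 CPM in knockout tumours. Parental replicate 2 and knockout replicate 2 came closest to each other, but no values crossed. The means were 171 ± 39.2 and 306 ± 51.6 CPM, and the log2 fold change was 0.84 (SE 0.166). PLAT, tissue plasminogen activator, was at 39.3, 23.7, 53.0 and 57.7 CPM in parental and at 3.64, 5.51, 3.92 and 5.88 CPM in knockout tumours. Its lowest parental tumour was replicate 2, the one with the most leukocyte marker RNA, and it still lay well above every knockout tumour. The log2 fold change was -3.20 (SE 0.275), or -3.40 to -3.04 with 1 tumour left out, and the knockout mean was 10.9% of the parental mean. PLAT (chromosome 8, 42175233 to 42207724, minus strand) stood 136th from the bottom of all 16219 fold changes.

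The activators were also set beside each other in each tumour. Per kb of exon, PLAT made up 11.7%, 4.48%, 12.4% and 13.9% of the summed PLAT and PLAU level in the parental tumours, against 0.450%, 1.03%, 0.546% and 0.837% in the knockout tumours. The group means were 10.6% ± 4.20 and 0.716% ± 0.267, with parental replicate 2 the low value of its group. With the longest transcript as the length they were 16.9% and 1.23%. This share was chosen after the values were seen.

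PLAUR (chromosome 19, 43646095 to 43670547, minus strand), the urokinase receptor, was at 79.5, 143, 91.7 and 89.0 CPM in parental and at 131, 124, 113 and 91.6 CPM in knockout tumours, and the groups overlapped, with parental replicate 2 the highest of all 8. The log2 fold change was 0.19 (SE 0.177), and without parental replicate 2, the tumour with the highest leukocyte marker sum, it was 0.41 and passed the call threshold. The PLAU level per kb of exon was 258% ± 17.0 of the PLAUR level in parental and 409% ± 92.9 in knockout tumours. With the longest transcript as the length it was 104% ± 6.80 and 164% ± 37.2, so whether PLAU lay well above PLAUR in parental tumours depends on the length used.

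SERPINE2 (chromosome 2, 223975112 to 224039319, minus strand), the serpin that inhibits thrombin and the plasminogen activators, was at 30.3, 30.7, 26.8 and 37.8 CPM in parental and at 68.8, 50.5, 64.0 and 56.9 CPM in knockout tumours. All knockout values lay above all parental values. The means were 31.4 ± 4.61 and 60.1 ± 8.03 CPM, and the log2 fold change was 0.94 (SE 0.127).

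**Figure D2:**
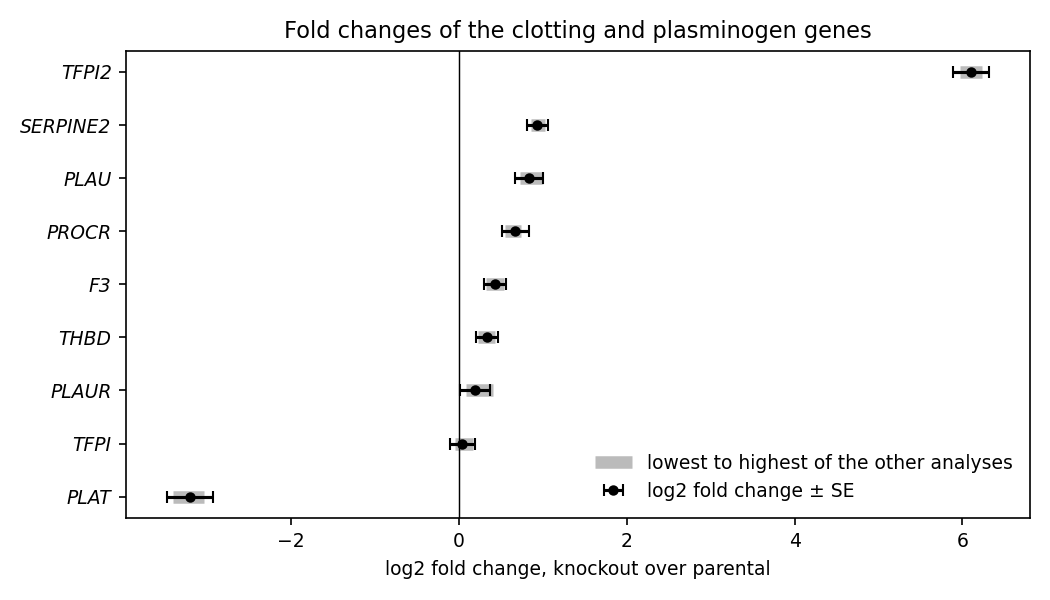
Log2 fold change of knockout over parental for the 9 genes, with bars of 1 SE and grey bands from the lowest to the highest value over 15 other analyses. TFPI2 stands at 6.10 and PLAT at -3.20, and the other 7 genes lie between 0.05 and 0.94.

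Of the 9 genes, 6 were past the call threshold in either direction, where the background over all genes was 27.0%. TFPI2, F3, SERPINE2, PLAU and PROCR were so on the higher side and PLAT on the lower side. The groups did not overlap for 6 genes in either direction (TFPI2, SERPINE2, PLAU, THBD, PROCR and PLAT), against 29.3% of all genes tested. Since the genes were named with these values known, the counts describe the choice. The median log2 fold change was 0.43 over the 9 genes and 0.00 over all genes tested.

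Levels were then ordered within each group per kb of exon, the scale on which genes can be set beside each other. F3 came first in both groups, at 145 ± 21.2 in parental and 196 ± 28.8 CPM per kb in knockout tumours, and PLAU second, at 57.9 ± 13.3 and 104 ± 17.5. TFPI2 was last of 9 in parental tumours, at 0.720 ± 0.126 CPM per kb, and ranked 3 in knockout tumours, at 49.4 ± 11.4. PLAT went from rank 6, at 6.56 ± 2.31, to last, at 0.716 ± 0.169. In parental tumours THBD (11.3), TFPI (8.95), PLAT (6.56) and PROCR (5.69 CPM per kb) were neighbours whose ranges over tumours overlapped. In knockout tumours only TFPI (9.24) and PROCR (9.10) overlapped among neighbours. With the longest transcript as the length, PLAUR (71.5) came before TFPI2 (54.2) in knockout tumours, with overlapping ranges. The exons of PLAUR sum to 4457 bases, but its longest transcript has 1610, so its place depends on the length used.

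**Figure D3:**
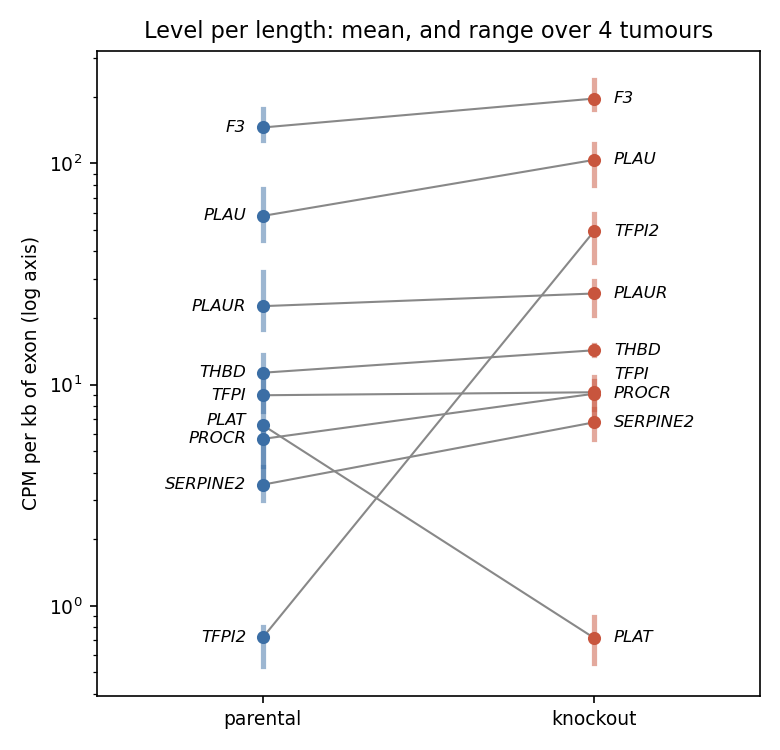
Mean level of each gene in CPM per kb of exon on a log axis, in parental and knockout tumours, with vertical bands for the range over 4 tumours. The lines of TFPI2 (0.720 to 49.4) and PLAT (6.56 to 0.716) cross, while F3 and PLAU stay at the top.

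The surroundings of TFPI2 were examined to see whether its neighbours differed too. GNGT1 overlaps TFPI2 on the opposite strand and had 0 to 4 counts per library, and the antisense RNA gene AC002076.1 had 2 counts over all libraries. On one side, the nearest 3 annotated genes (NDUFAF4P2, AC002075.1 and MIR4652) had 0 counts in all 8 libraries, each of which allows up to 3. On the other side AC002076.2 had 0 counts and AC006378.2 had 18 parental and 21 knockout counts. GNG11, which encodes a G protein gamma subunit and starts 30.7 kb from TFPI2, rose. Parental counts were 10, 17, 18 and 18 and knockout counts 259, 197, 311 and 204, or 0.729 ± 0.143 and 11.4 ± 2.38 CPM. In log2 this was a change of 3.95 (SE 0.218, edgeR adjusted p = 7.14e-07), without overlap. BET1, a vesicle transport gene 71.8 kb away and named after its values were seen, had a log2 difference of 0.28 (SE 0.107, edgeR adjusted p = 0.0769) and was not called. Of 8 genes tested within 1000 kb, TFPI2 left out, 1 was called higher (GNG11), 2 lower (SAMD9L and SGCE) and 5 were not called, against 27.0% called over all genes.

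**Figure D4:**
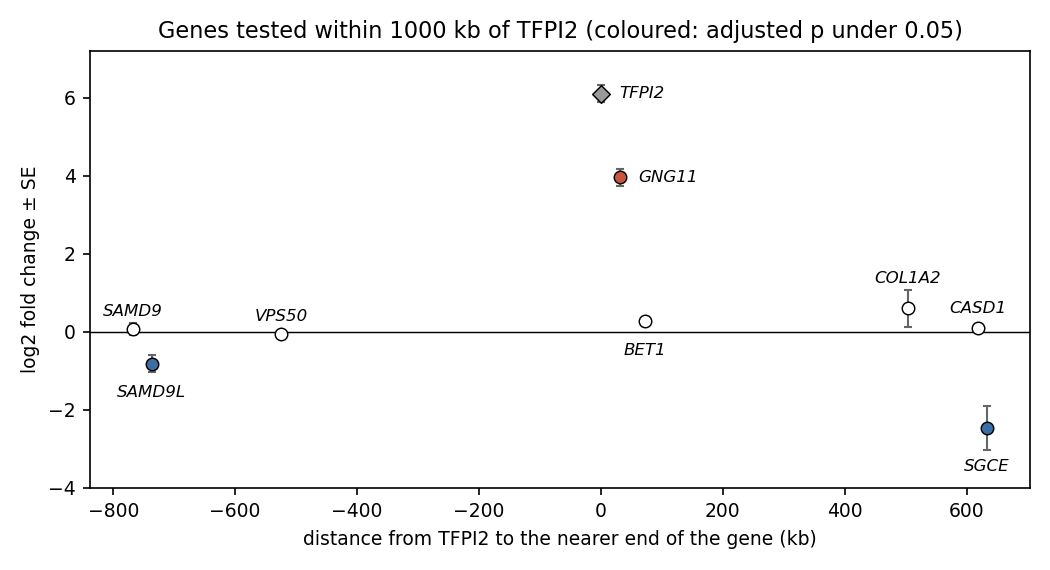
Log2 fold change with bars of 1 SE for the genes tested within 1000 kb of TFPI2, against the distance from TFPI2 to the nearer end of each gene in kb. TFPI2 is the grey diamond, given without a test. GNG11 at 30.7 kb stands at 3.95, and the 7 other genes lie between -2.46 and 0.60.

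The genes whose pattern over the 8 tumours came closest to that of TFPI2 were IGFBP1, CLMP, CRB1, MFAP5 and DPEP1, in that order. Likeness was the root mean square difference between centred log2(CPM + 0.5) values, which was 0.44 for IGFBP1, 0.78 for CLMP, 0.94 for CRB1, 0.95 for MFAP5 and 0.96 for DPEP1. CLMP, an adhesion molecule gene, was at 7.71 ± 2.69 and 161 ± 47.0 CPM, and MFAP5, a microfibril gene, at 0.568 ± 0.145 and 16.4 ± 3.85 CPM. Centring was over both groups, so the order follows mainly how near a gene's difference between the groups came to that of TFPI2. TFPI2 was itself chosen on that difference, so the likeness is a description and no support for a link between the genes. IGFBP1, CRB1, MFAP5 and DPEP1 had parental means of 0.637, 0.167, 0.568 and 0.0356 CPM and met the filter on average level only through the knockout tumours. DPEP1 and CRB1 had 3 and 14 parental counts in all, and no other pseudocount was tried for this order.

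Other genes were then counted, in 7 lists that do not hold the 9 genes. The lists cover clotting and fibrinolysis, and also other Kunitz domain genes and membrane serine protease genes, which are not clotting genes as a set. Of 68 listed symbols in the tables, 43 passed the filter, of which 9 were called higher, 12 lower and 22 were not called. The Kunitz list gave 2 of the higher and 2 of the lower calls, and the membrane protease list 1 and 4. The median log2 fold change over all 43 was -0.03. The background was 27.0% called over all genes. Without knockout replicate 1, 5 were called higher.

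Among 9 clotting factor genes tested, 3 rose, 3 fell and 3 were not called, with a median log2 fold change of 0.03. Of the 3 fibrinogen chain genes, 2 were called. FGA, the alpha chain, rose from 76.7 ± 13.6 to 409 ± 82.7 CPM (log2 difference 2.41, SE 0.168, edgeR adjusted p = 2.98e-06), with no overlap between groups. FGB, the beta chain, rose by 0.91 (SE 0.218, adjusted p = 0.00947, edgeR). FGG, the gamma chain, had a log2 difference of -0.23 (SE 0.386, edgeR adjusted p = 0.701) and ranged from 47.7 to 217 CPM among parental tumours. F5, a cofactor of the enzyme that makes thrombin, rose by 1.05 (SE 0.248, edgeR adjusted p = 0.00899). F12, which starts the contact pathway, fell from 17.3 ± 1.19 to 9.91 ± 1.74 CPM (log2 difference -0.80, SE 0.135, edgeR adjusted p = 0.00113). F13A1, the fibrin-crosslinking subunit, fell from 234 parental to 16 knockout counts (log2 fold change -3.77, SE 0.616, edgeR adjusted p = 0.000936). VWF, which carries factor VIII and is made by endothelium and megakaryocytes, fell from 172 to 32 counts (-2.37, SE 0.343, edgeR adjusted p = 0.000410). The endothelial markers did not share one direction, as given above, and their part in the VWF value was not tested. F7, whose protein partners tissue factor, had 2 parental and 2 knockout counts in all, and F10 had 1 and 3. F2, the prothrombin gene, went from 36 to 112 counts without passing the threshold (edgeR adjusted p = 0.0597). FGB, FGG, F5, F7, F10 and F2 were chosen for mention after their values were seen.

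Of 5 genes for carboxylation or secretion of clotting factors, 2 rose, GGCX, the vitamin K-dependent carboxylase (0.37, SE 0.11, edgeR adjusted p = 0.0287), and LMAN1, the cargo receptor of factors V and VIII (0.43, SE 0.138, edgeR adjusted p = 0.0403). The other 3 were not called, and the list's median was 0.08. Both calls were lost in 6 of the 8 fits that left out 1 tumour, all but those without parental replicate 2 or knockout replicate 4.

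Anticoagulant proteins of plasma were mostly below the filter, with 3 of 8 genes tested and a median of 0.23. PROS1, encoding protein S, the cofactor of activated protein C, rose from 6.52 ± 2.0 to 35.1 ± 4.16 CPM. Its parental range of 4.66 to 8.40 CPM and knockout range of 31.3 to 40.9 CPM were far apart, and the change in log2 was 2.43 (SE 0.194, edgeR adjusted p = 7.27e-06). SERPINA5, the protein C inhibitor, fell from 4.07 ± 0.996 to 1.24 ± 0.394 CPM (log2 difference -1.71, SE 0.264, edgeR adjusted p = 0.000629). ANXA5, a protein that covers membrane phospholipid, was not called (0.23, SE 0.0808, edgeR adjusted p = 0.0595).

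Of 9 other plasminogen system genes tested, 8 were not called, and the list's median log2 fold change was -0.04. PLG, the plasminogen gene itself, had 12 parental and 7 knockout counts in all and was not tested. Plasminogen docking genes were not called, and not all of them were abundant. PLGRKT, named after its values were seen, was at 11.2 ± 1.03 and 12.7 ± 0.660 CPM. ANXA2 was at 2074 ± 196 and 2016 ± 215 CPM (log2 fold change -0.04, SE 0.105, edgeR adjusted p = 0.812), with the sign turned without parental replicate 4 (0.01) or knockout replicate 2 (0.03). Its reads can be shared with processed pseudogenes, which makes its counts uncertain.

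Of 4 genes for receptors that thrombin and related proteases cleave, 2 were tested. F2R, the main thrombin receptor, fell from 6.14 ± 1.63 to 4.09 ± 0.343 CPM (log2 fold change -0.59, SE 0.197, edgeR adjusted p = 0.0470). That call was lost in 9 of 15 other analyses, among them every fit that left out a knockout tumour and those without parental replicate 2 or 3. F2RL1, the receptor for trypsin-like proteases, had a log2 fold change of -0.30 (SE 0.106) and was not called (edgeR adjusted p = 0.0566), although it was by DESeq2 and without parental replicate 1.

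Of 10 other Kunitz domain genes tested, 2 rose, 2 fell and 6 were not called, with a median of 0.01 and a highest log2 fold change of 0.89. WFIKKN1 was that gene, at 5.43 ± 1.84 and 10.0 ± 1.63 CPM (SE 0.241, edgeR adjusted p = 0.0180, and 0.0568 without knockout replicate 1). COL7A1, a collagen with a Kunitz domain, rose by 0.67 (SE 0.221, edgeR adjusted p = 0.0425), a call lost in 6 of the 8 fits that left out 1 tumour, all but those without parental replicate 3 or knockout replicate 3. AMBP fell by 1.79 on the log2 scale (SE 0.366, edgeR adjusted p = 0.00382), and COL28A1 by 1.49 (SE 0.208, edgeR adjusted p = 0.000324). SPINT1 and SPINT2, membrane inhibitors of epithelial proteases, were at 652 ± 60.5 and 283 ± 16.5 CPM in parental tumours, with log2 fold changes of -0.23 and -0.13 that were not called.

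Of the membrane serine protease genes, all 5 tested were called, 4 lower and 1 higher, with a median of -0.99. PRSS8, prostasin, fell from 89.5 ± 15.9 to 31.5 ± 2.94 CPM (log2 difference -1.51, SE 0.130, edgeR adjusted p = 1.16e-05). TMPRSS4 fell from 359 ± 64.2 to 181 ± 24.3 CPM (-0.99, SE 0.140, edgeR adjusted p = 0.000353), and ST14, matriptase, fell by 0.49 on the log2 scale (SE 0.0882, edgeR adjusted p = 0.00178; named after its values were seen). TMPRSS2 fell from 296 to 10 counts in all (-4.77, SE 0.600, edgeR adjusted p = 0.000159). HPN, hepsin, rose from 35 to 160 counts (2.18, SE 0.392, edgeR adjusted p = 0.00173).

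**Figure D5:**
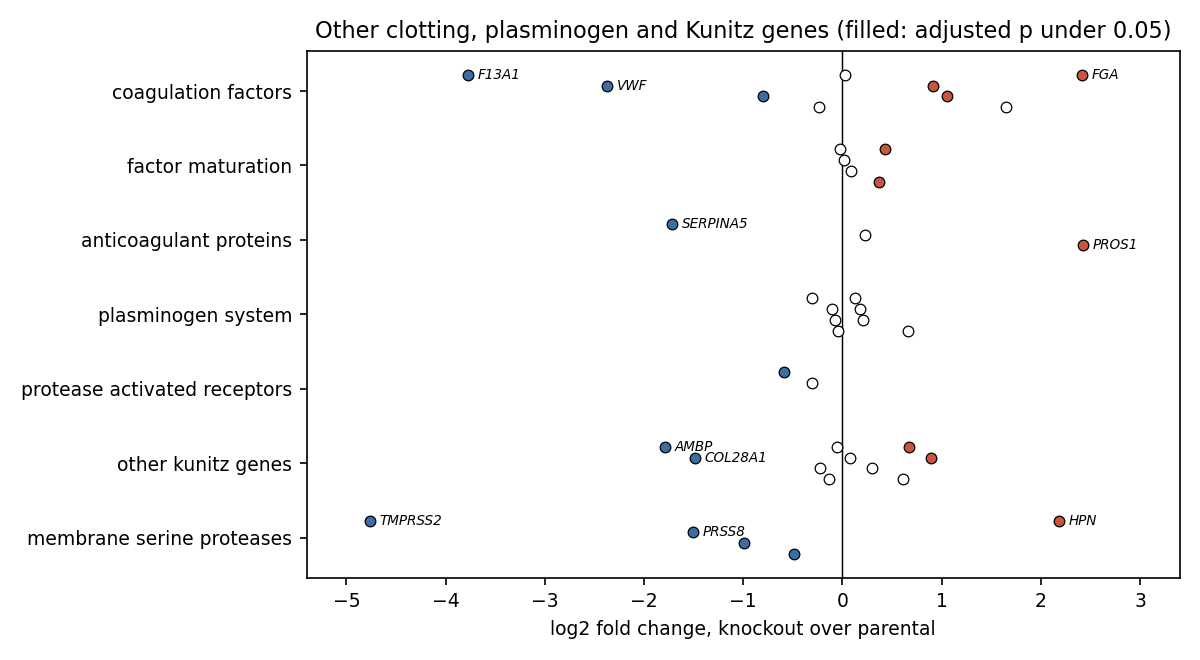
Log2 fold change of knockout over parental for tested genes in 7 lists of other clotting, plasminogen, Kunitz and membrane protease genes. Of the lists, 1 gene is not shown. Filled points passed the threshold, red for higher and blue for lower in knockout tumours, and open points did not. FGA (2.41) and PROS1 (2.43) stand farthest to the right and TMPRSS2 (-4.77) farthest to the left.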

How the data were processed

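RNA of 8 H2122 xenografts, 4 parental and 4 SMARCA4 knockout, was measured in 1 library each. The authors deposited unnormalised read counts, 1 value for each gene symbol. The submitters' processing notes name TopHat2 2.1.1, HTSeq 0.11.0 and hg38. The annotation, the strand setting and any removal of mouse reads are not given in the sources used here, so host reads may be counted as human. The labels do not say that each tumour came from its own animal, so p-values measure the spread between these samples. The 5 summary lines per file named no gene and stayed out of library sizes (79.1% to 85.2% of reads were assigned to genes).

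The fit used edgeR 4.0.16 in R 4.3.3: filterByExpr (minimum count 10, minimum total 15), TMM scaling, the quasi-likelihood test without covariates, and Benjamini-Hochberg adjustment over 16219 genes with a threshold of 0.05. It was also run on simulated counts in which far fewer genes were changed than were called here. That run does not show how the scaling or the false calls behave at the share called here. Other analyses were DESeq2 1.42.0, 3 other scalings, 2 other filters, the replicate number as a block and leaving out each tumour. Permutation tests were exact (scipy 1.17.1), with a smallest possible p of 0.0286. Lengths and positions are from GENCODE 29, matched by symbol. The intervals of a count of 0 cover counting error only.

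The 9 genes and all lists were chosen with earlier results of these data known. Genes named were the 9, SMARCA4, PLG, F2R, F2RL1 and ANXA2, up to 4 called genes per list by smallest p, the neighbours of TFPI2, and the 5 genes most like it (average log2 CPM at least 1). MRC2, a listed gene, was not analysed here, and 1 gene that the rule names is not reported here.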

Additional observations from a re-analysis of the deposited data

Results flagged for a closer look

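In 86 sets of 4 values (the named genes, marker sums and shares in each group), 1 tumour stood apart from the other 3 of its group by a gap above the 95% critical value of Dixon's test. Chance alone gives about 1 in 20 sets. That tumour was knockout replicate 1, for SERPINA5, the protein C inhibitor gene. Its value of 1.82 CPM compared with 0.975 to 1.07 CPM in the rest of its group and 3.15 to 5.18 CPM in parental tumours, so the groups did not overlap with or without it. None of the 9 clotting and plasminogen genes had a tumour standing apart in this way.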

How the results depend on the processing

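The number of genes called ran from 3501 to 4902 over 15 other analyses, against 4385. The number of the 9 genes called higher ran from 4 to 6, and 1 was called lower in each of the 15. For single genes, 126 of 135 values of the 9 kept their direction and side of the threshold, and the exceptions were those given above for F3, THBD, PLAUR and TFPI. With 1 tumour left out, TFPI ran from -0.040 to 0.17, below 0 without parental replicate 2 or knockout replicate 2. ANXA2 ran from -0.094 to 0.034, above 0 without parental replicate 4 or knockout replicate 2. None of these passed the threshold. In the lists of other genes, leaving out 1 tumour gave 5 to 8 called higher, against 9, and 11 to 13 called lower, against 12. The stricter filter on low counts gave 7 called lower: VWF, F13A1, AMBP and TMPRSS2 were no longer tested, and F2R was tested but lost its call (-0.57, edgeR adjusted p = 0.0563). By raw counts instead of counts per kb, the TFPI2 share was 1.85% and 54.8% in parental and knockout tumours, and the PLAT share, added after the values were seen, 20.8% and 1.59%, a move that follows from the lengths. With the longest transcript as the length, also added later, they were 5.58% and 79.1%, and 16.9% and 1.23%. Without 1 tumour the TFPI2 share was 6.92% to 8.10% and 83.2% to 85.2%, and the PLAT share 9.52% to 12.7% and 0.611% to 0.805%. With upper-quartile scaling, 54.1% of all calls were higher, against 47.9%. With the replicate number as a block, 3871 genes were called, F2R (-0.55) and COL7A1 (0.72) lost their calls, and the 9 genes kept theirs. Same-numbered tumours did not deviate together (correlations of -0.28 to 0.10 across genes, with 0 of 8 libraries closest to their own number), so the numbers were not taken as pairs. Depth limits the genes at a few counts, such as PLG, F7 and F10, for which a difference was not detectable.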
